A study of Mus musculus with 2 samples.

Results

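The sensory genes followed here were *Trpa1*, *Trpc4*, *Trpc7* and *Trpm2*, which encode cation channels of the transient receptor potential (TRP) family, and *Adra2a*, which encodes the alpha-2A adrenergic receptor. They are 5 of the 23532 gene symbols with an estimate in both libraries, and were chosen by their FPKM in these same libraries and by their place in the sensing of irritants and catecholamines. Their levels and differences are therefore a description and carry no test. One fraction was GFP+ cells sorted from intestinal organoids of ChgA-GFP mice, in which green fluorescent protein marks cells with chromogranin A, a granule protein of enteroendocrine cells. It was set against the GFP- cells left from the same sort. Both came from crypts of the small intestine grown in Matrigel with epidermal growth factor, noggin and R-spondin, so neither fraction had seen nerves, blood or a live microbiota. Per the labels about 1% of epithelial cells were GFP+. There was 1 library per fraction, and no difference below has a replicate check. The labels give no number of animals, no age and no sort count.

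Enterochromaffin cells are the enteroendocrine cells that make most of the body's serotonin, and they release it onto sensory nerve endings in the gut wall. TRP channels pass calcium and sodium when opened by chemicals, lipids, heat or receptor signalling. The published study of these cells described calcium responses to the mustard irritant allyl isothiocyanate through TRPA1, and to catecholamines through the alpha-2A receptor coupled to TRPC4. TRPA1 is opened by electrophilic irritants, TRPC4 downstream of receptors coupled to G proteins, TRPC7 by diacylglycerol, and TRPM2 by ADP-ribose and calcium during oxidative stress. The alpha-2A receptor binds noradrenaline and adrenaline and acts through inhibitory (Gi/o) G proteins.

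Each gene occupied a single row with 1 transcription start group and an OK status in both libraries. Upstream sequence of 4 of the 5 was found in the RefSeq promoter table (GRCm38.p6, the assembly of mm10), which spans 250 bases before and 50 bases after each start site. It is shown because 3 of these genes were far higher in GFP+ and *Adra2a* was not. Capitals mark matches on either strand to any of 6 letter strings that do not overlap here. These were the promoter element TATAAA, the E-box spelling CAGCTG, the E-box spelling CAGATG, the homeodomain core TAATTA, the forkhead string TGTTTAC and the Sp1-type string GGGCGG. The regions were chr3:54155807-54156106 (plus strand) for *Trpc4*, chr13:56895740-56896039 (minus) for *Trpc7*, chr10:77969823-77970122 (minus) for *Trpm2* and chr19:54045009-54045308 (plus) for *Adra2a*.
Trpc4: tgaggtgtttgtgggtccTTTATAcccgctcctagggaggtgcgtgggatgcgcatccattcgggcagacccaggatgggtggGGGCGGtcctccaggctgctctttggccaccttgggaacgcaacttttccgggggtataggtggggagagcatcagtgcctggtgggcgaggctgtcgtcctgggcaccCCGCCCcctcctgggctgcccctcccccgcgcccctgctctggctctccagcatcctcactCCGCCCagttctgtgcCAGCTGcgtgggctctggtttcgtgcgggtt
Trpc7: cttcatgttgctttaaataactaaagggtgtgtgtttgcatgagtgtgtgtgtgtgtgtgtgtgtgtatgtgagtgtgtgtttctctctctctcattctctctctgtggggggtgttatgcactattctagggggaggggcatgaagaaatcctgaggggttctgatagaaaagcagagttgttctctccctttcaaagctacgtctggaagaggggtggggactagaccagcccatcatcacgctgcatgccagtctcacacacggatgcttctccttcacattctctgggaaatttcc
Trpm2: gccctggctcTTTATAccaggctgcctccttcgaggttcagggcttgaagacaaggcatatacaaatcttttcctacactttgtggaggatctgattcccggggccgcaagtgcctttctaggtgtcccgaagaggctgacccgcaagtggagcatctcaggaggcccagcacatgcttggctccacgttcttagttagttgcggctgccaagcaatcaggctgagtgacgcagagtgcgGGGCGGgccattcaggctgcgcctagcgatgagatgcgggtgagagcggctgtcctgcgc
Adra2a: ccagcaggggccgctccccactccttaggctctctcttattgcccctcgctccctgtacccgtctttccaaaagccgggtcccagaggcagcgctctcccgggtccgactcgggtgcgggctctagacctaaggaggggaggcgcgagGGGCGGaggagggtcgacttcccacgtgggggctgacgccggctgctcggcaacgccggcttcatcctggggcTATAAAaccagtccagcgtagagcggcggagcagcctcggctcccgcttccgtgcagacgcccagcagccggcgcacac

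No string was present in all 4 sequences. The *Trpc7* stretch held none of them and had a long run of alternating g and t. It had 3 CpG sites and 48.0% G and C, against a median of 52.7% over the 32851 promoters of the table. *Adra2a* had 28 CpG sites and 68.7% G and C, with a TATAAA string 29 bases before the start site. In *Trpc4* and *Trpm2* the same string lay on the other strand, at 232 and 240 bases before it. TATAAA was present in 13.6% of all promoters. The single E-box string was the CAGCTG of *Trpc4*, 20 bases into the transcript, a string found in 16.3% of promoters. GGGCGG was found in *Trpc4* at 3 places and in *Trpm2* and *Adra2a* at 1 place each, and in 35.7% of promoters. The start site lay on the edge of the listed locus for *Trpc4* and *Trpm2*, 201 bases from it for *Trpc7* and 77 bases for *Adra2a*. A string match is a description of these letters and not a binding site.

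*Trpa1* was the channel gene of this group with by far the most RNA. It lies on chromosome 1, at 14872648 to 14918862 on the minus strand (mm10; GENCODE M21 lists a protein-coding gene with 2 transcripts, the longest of 27 exons). It was at 617 FPKM in the GFP+ library, against 2.52 FPKM in the GFP- library, where FPKM is fragments per kilobase of transcript scaled to library size. This ranked it 46th of 23532 symbols in GFP+, against 9288th in GFP-. The ratio was 245, and the log2 difference of FPKM + 1 was 7.46, the second highest of the 11868 symbols that reached 1 FPKM in either library. The authors' upper confidence bounds were 1786 FPKM in GFP+ cells and 5.98 FPKM in GFP- cells.

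*Trpm2* and *Trpc7* stood at nearly the same level as each other. *Trpm2* (chromosome 10, 77907722 to 77969872, minus strand) was at 51.2 FPKM in GFP+ cells, against 0.206 FPKM in GFP- cells, with upper bounds of 120.2 and 0.555 FPKM. *Trpc7* (chromosome 13, 56773108 to 56895588, minus strand) was at 46.3 FPKM in GFP+ cells, against 0.251 FPKM in GFP- cells, with upper bounds of 99.4 and 0.698 FPKM. Their ratios were 249 and 185 and their log2 differences 5.44 and 5.24. They ranked 1811th and 2007th in GFP+, against 12359th and 12141st in GFP-, at the 92.3rd and 91.5th percentile in GFP+ and the 47.5th and 48.4th in GFP-.

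*Trpc4* was the lowest of the 4 channel genes in both libraries. At chromosome 3, 54156057 to 54318471 on the plus strand, it was at 15.3 FPKM in GFP+ cells, against 0.144 FPKM in GFP- cells, with upper bounds of 36.5 and 0.414 FPKM. The ratio was 106 and the log2 difference 3.83, which fell to 1.98 with a pseudocount of 5 in place of 1 and then missed the 4-fold rule (a difference of at least 2). Its rank was 5384th in GFP+ and 12702nd in GFP-. Within the GFP+ library *Trpa1* stood 40.4 times above *Trpc4*, 13.3 times above *Trpc7* and 12.0 times above *Trpm2* in FPKM, a unit that is already divided by transcript length.

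*Adra2a* differed from the other 4 in direction. This gene without introns in its longest transcript (chromosome 19, 54045182 to 54048982, plus strand) was at 1.10 FPKM in GFP+ cells, against 4.61 FPKM in GFP- cells, with upper bounds of 3.18 and 10.6 FPKM. The FPKM ratio of GFP+ to GFP- was 0.239, that is 4.18 times lower in GFP+. On the log2 scale with a pseudocount of 1 the difference was -1.42, inside the 4-fold rule. It ranked 11359th in GFP+ and 8217th in GFP-. The receptor that the study linked to catecholamine responses was thus listed at a low level in GFP+ and at a higher one in the GFP- fraction.

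**Figure D1:**
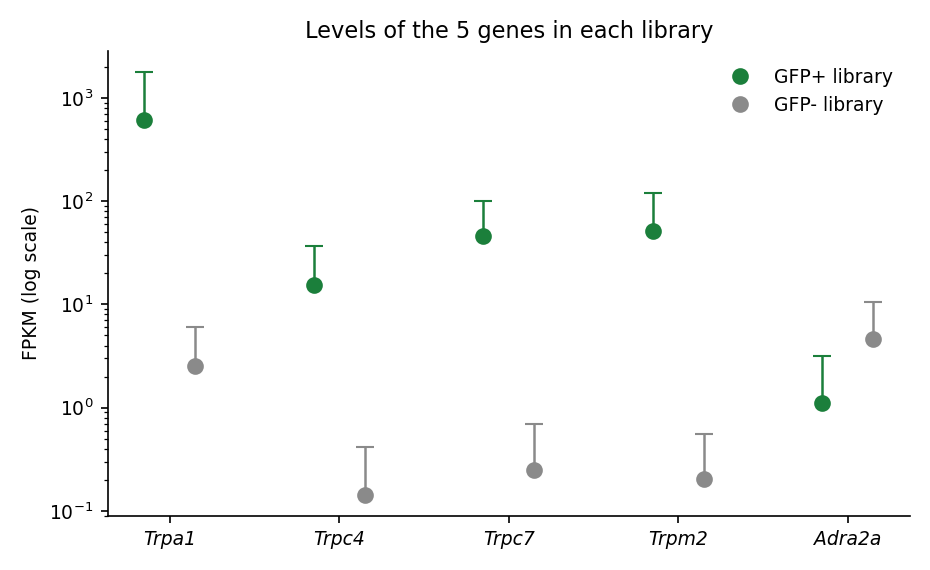
FPKM on a log axis of the 5 genes in the GFP+ library (green, left of each pair) and the GFP- library (grey, right). Points are the deposited values, and bars reach up to the authors' upper confidence bound; the lower bound is 0 for all 5 in both libraries and cannot be drawn. *Trpa1* is highest at 617 against 2.52 FPKM, and *Adra2a* alone is lower in GFP+, at 1.10 against 4.61 FPKM.

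With the 4-fold rule, 4 of the 5 genes were higher in GFP+ and none was lower. Over all symbols compared, 7.09% were higher and 4.59% lower by that rule, and the median log2 difference was -0.12. A typical gene with 10 FPKM or more in each library was lower in GFP+, by a median log2 ratio of -0.50. With that median set to 0 the median over all symbols became 0.35, and the differences were 7.96 for *Trpa1*, 5.93 for *Trpm2*, 5.73 for *Trpc7*, 4.30 for *Trpc4* and -1.13 for *Adra2a*. With the summed FPKM of both libraries made equal the median was 0.45, and *Adra2a* stayed below 0. Of the symbols past the rule 60.7% were higher in GFP+ as deposited, against 87.7% with the median ratio set to 0 and 91.1% with one total. Since the genes were chosen for this contrast, nothing is read from their share. *Trpc4*, *Trpc7* and *Trpm2* were below 1 FPKM in GFP- cells and entered the comparison through GFP+ alone, which fixes the sign of their difference. The deposited bounds of the 2 libraries overlapped for all 5 genes, since the lower bounds were 0 in each. In a sorted bulk sample, fewer cells that use a gene and less RNA per cell cannot be told apart.

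**Figure D2:**
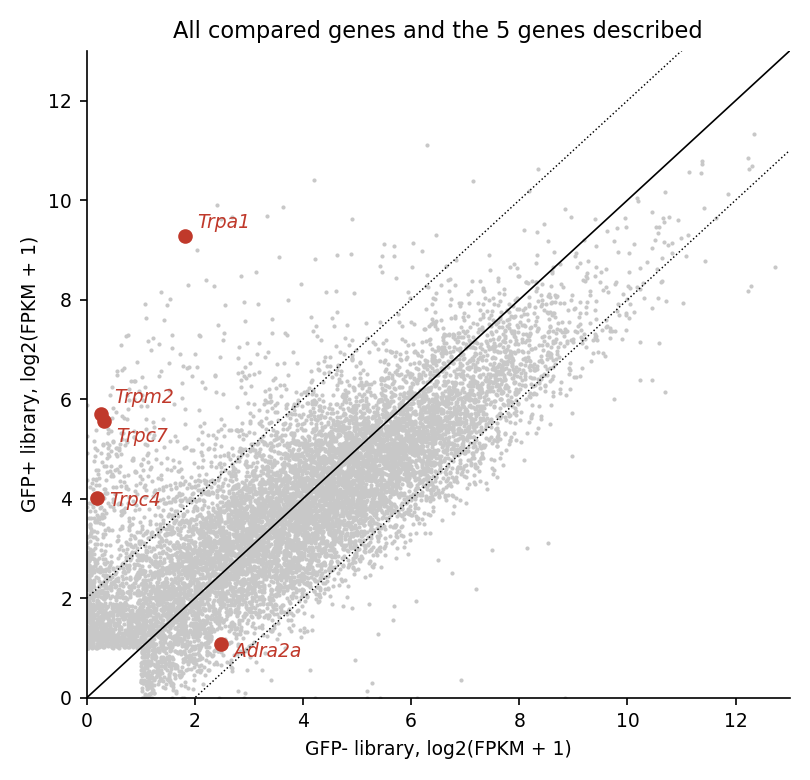
Each grey dot is 1 of the 11868 symbols that reached 1 FPKM in either library, at log2(FPKM + 1) in GFP+ (vertical) and in GFP- (horizontal). The solid line marks equal values and the dotted lines a 4-fold difference; *Trpa1*, *Trpm2*, *Trpc7* and *Trpc4* (red) lie above the upper dotted line, and *Adra2a* (red) lies below the solid line and inside the lower dotted one.

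The files give no counts, and the fragments behind these values could be approximated. Low values came in steps, whose commonest was taken as 1 fragment, giving 59.8 fragments per FPKM and kilobase in GFP+ and 59.0 in GFP-. On this scale, with the longest annotated transcript, *Trpa1* rested on about 157256 fragments in GFP+ and 633 in GFP-. *Trpc4* rested on about 3169 fragments in GFP+ and 29.5 in GFP- (95% exact Poisson interval 20.2 to 42.8). For *Adra2a* the figures were 318 (284 to 355) in GFP+ and 1313 (1243 to 1386) in GFP-. Its longest transcript begins at 54044151, outside the listed locus, which begins at 54045182. That length is thus longer than the listed row, and the *Adra2a* figures run high. *Trpc7* and *Trpm2* rested on about 52.0 (38.8 to 68.2) and 88.3 (70.6 to 108) fragments in GFP-. With the shortest coding transcript in place of the longest these became 33.1 for *Trpc7* and 5.29 for *Trpm2*, both outside the intervals given, so the transcript taken moves these figures by more than counting error does. The level of 3 fragments was 0.0146 FPKM for *Trpc4* in GFP-, so its 0.144 FPKM lay well above that limit. Intervals and limits cover counting error only, since PCR copies cannot be told from separate molecules here.

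Sequence shared with other genes was small. Of the 50-base words of the longest transcript, none in *Trpa1*, *Trpc4*, *Trpc7* or *Adra2a* and 0.388% in *Trpm2* occurred in a GENCODE M21 transcript of another gene. No other annotated gene overlapped 4 of the loci. That of *Trpm2* overlapped 2 small nucleolar RNA genes, *Gm22394* and *Gm22871*.

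The GFP- level of each channel gene was a small share of its GFP+ level. It was 0.408% for *Trpa1*, 0.401% for *Trpm2*, 0.541% for *Trpc7* and 0.945% for *Trpc4*. The same share was 0.851% for *Lmx1a*, a transcription factor of enterochromaffin cells, 1.29% for *Tph1*, which sets the rate at which serotonin is made, and 2.32% for *Slc18a1*, which loads serotonin into vesicles. It was 3.33% for *Fev*, 3.52% for *Tac1* and 15.9% for *Ddc*. The shares of *Trpa1*, *Trpm2* and *Trpc7* were below those of these 6 enterochromaffin marker genes, and that of *Trpc4* was above *Lmx1a*. *Slc18a2*, a vesicular monoamine transporter outside that marker list, had 0.496%, below *Trpc7*. The TRP channel gene *Trpc5* had 0.294%, below all 4 channel genes described. Since the genes were chosen by their FPKM in these libraries, nothing is read from this order. *Chga*, the gene of the reporter, was at 133 FPKM in GFP- cells and had no estimate in GFP+, where its locus held too many fragments for Cuffdiff. For *Adra2a* the GFP- level was 418% of the GFP+ level.

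Marker lists of other cell types differed in how many genes passed the 4-fold rule, against 7.09% higher and 4.59% lower over all symbols compared. All 8 Paneth cell markers were at least 4-fold lower in GFP+, with a summed level of 1069 FPKM, against 17546 FPKM in GFP- cells. Of 9 hormone genes of other enteroendocrine cells, 4 were lower and 2 higher, with sums of 288 and 599 FPKM. Of 8 enterocyte markers 6 were within the rule and 2 lower, with sums of 1677 FPKM in GFP+ cells and 3538 FPKM in GFP- cells. Of 6 goblet cell markers compared, 4 were within it and 2 lower, with sums over the list of 1354 and 3165 FPKM. Of 8 tuft cell markers with an estimate, 6 were compared and 1 was lower; their sum was 6.15 FPKM in GFP+ cells and 21.5 FPKM in GFP- cells. *Avil*, a tuft cell marker, was at 1.10 FPKM in GFP+ cells and 4.61 FPKM in GFP- cells, the same as *Adra2a* to 3 digits, and *Pou2f3*, the tuft cell regulator, was at 0.606 against 2.68 FPKM. *Dclk1*, the tuft marker with the highest level in GFP+, went the other way, at 2.58 against 1.31 FPKM. The tuft marker *Gnat3* was at 0 in GFP+ and 0.0521 FPKM in GFP- cells. Of 8 stem and cycling cell markers 3 were lower and 5 within the rule, with sums of 390 and 1526 FPKM. Neuron and glia markers summed to 8.76 FPKM in GFP+ cells and 0.578 FPKM in GFP- cells, of which *Ret* held 6.75 and 0.268 FPKM. Of the 2 compared, 1 passed the rule upward, *Ret*, with a log2 difference of 2.61. Mesenchymal markers summed to 4.55 FPKM in GFP+ cells and 0.0198 FPKM in GFP- cells, and neither of the 2 compared passed the rule. Immune and mast cell markers summed to 14.1 and 8.51 FPKM, of which *Kit* held 11.3 and 7.80 FPKM, and neither of the 2 compared passed the rule. The part of these cells in the levels of the 5 genes was not tested.

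The TRP channel genes were then set side by side to place the 4 members in their family. Of 28 family symbols, 27 had a row of their own, and 12 of these reached 1 FPKM in either library. In GFP+ 5 of the 12 were past the 4-fold rule upward and 0 downward, against a background of 7.09% and 4.59%, and their median log2 difference was 1.60. Of the 12, 6 were below 1 FPKM in GFP- cells and so could not be lower. Among the 8 that are not described above, *Pkd2* (polycystin, a channel of the primary cilium and endoplasmic reticulum) alone passed the rule, at 7.42 FPKM in GFP+ cells and 0.861 FPKM in GFP- cells, and it did not pass with a pseudocount of 5. The median of these 8 was 0.95, with 5 above 0 and 3 below.

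Other channels were abundant in both libraries. *Mcoln1*, the lysosomal calcium channel, was at 35.3 FPKM in GFP+ cells and 21.9 FPKM in GFP- cells. *Trpm4*, a channel for sodium and potassium that opens on internal calcium, was at 23.1 and 41.1 FPKM. *Trpm7*, a channel fused to a kinase that carries magnesium, was at 17.8 and 5.92 FPKM. *Mcoln1* and *Trpm4* did not pass the rule under any setting run, and *Trpm7* passed it only with both libraries rescaled to one total.

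The closest relatives of *Trpc4* were low. *Trpc5* was at 1.37 FPKM in GFP+ cells and 0.00404 FPKM in GFP- cells, and *Trpc1*, which can join TRPC4 in one channel, was at 2.61 FPKM in GFP+ cells and 0.0630 FPKM in GFP- cells. *Trpc1* had a log2 difference of 1.76 and passed the 4-fold rule under both other scalings and with a pseudocount of 0.1, as *Trpc5* did with that pseudocount. *Trpc6*, a relative of *Trpc7* that diacylglycerol also opens, was at 0 FPKM in GFP+ cells and at 0.00532 FPKM in GFP- cells.

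Other channels of heat and irritant sensing were near or at 0. *Trpv1*, the capsaicin receptor that sensory neurons carry beside TRPA1, was at 0.0139 FPKM in GFP+ cells and 0.0140 FPKM in GFP- cells. *Trpm8*, the menthol and cold receptor, *Trpv4* and *Trpv5* were listed at 0 in both. *Trpv3* was at 0 in GFP+ and 0.0362 FPKM in GFP- cells, and *Trpv6*, the epithelial calcium channel, was at 0 in GFP+ and 0.106 FPKM in GFP- cells. *Trpm5*, the channel of taste and tuft cells, and *Mcoln2* were lower in GFP+, at 0.321 and 3.95 FPKM, against 2.10 and 11.5 FPKM in GFP- cells, and neither passed the rule, except *Trpm5* with a pseudocount of 0.1. In all, 15 family genes did not reach 1 FPKM, and the highest value among them was 0.925 FPKM, for *Pkd2l2* in GFP+.

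**Figure D3:**
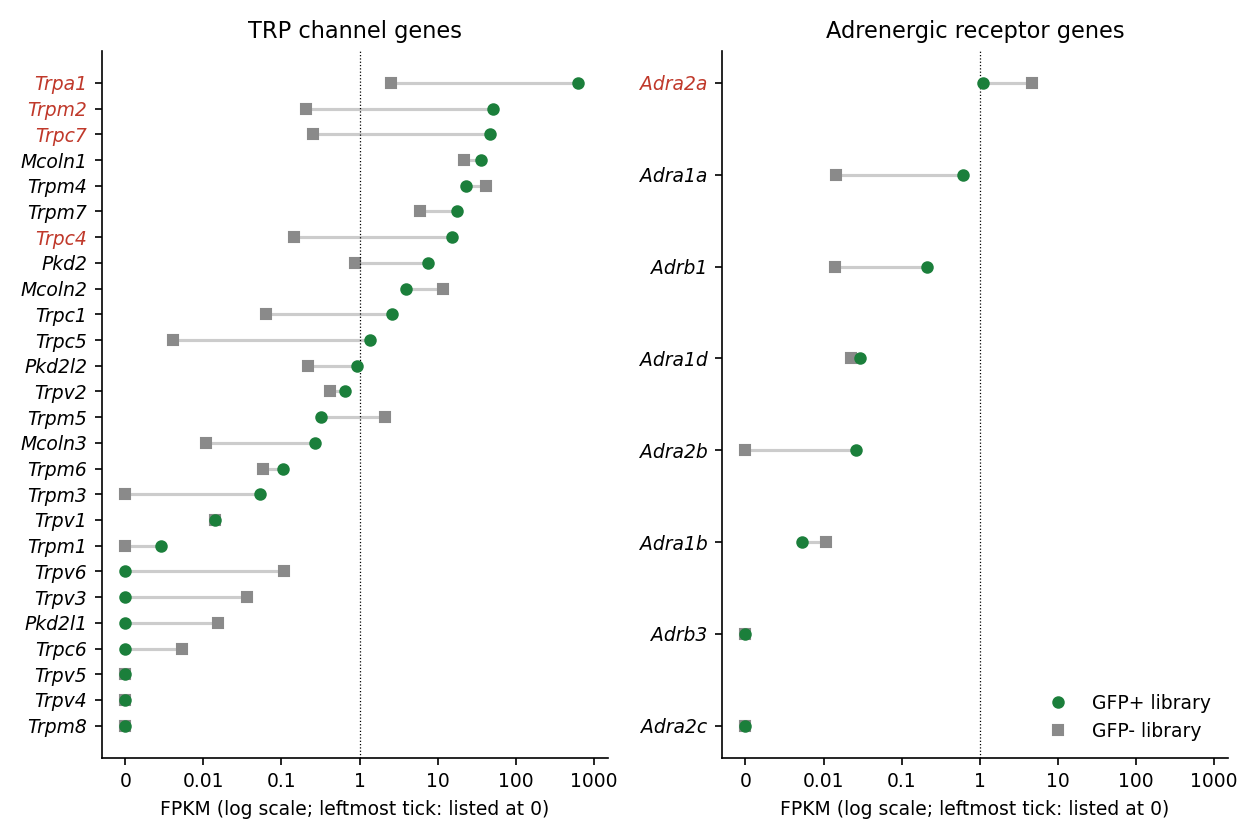
FPKM on a log axis of 26 TRP channel genes (left panel) and 8 adrenergic receptor genes (right panel), sorted by the GFP+ level. Green circles are the GFP+ library and grey squares the GFP- library; the leftmost tick stands for genes listed at 0, the dotted line for 1 FPKM, and red names mark the 5 genes described. Of the genes above 0 in both libraries, *Trpc5*, *Trpm2*, *Trpa1*, *Trpc7* and *Trpc4* have the longest spans, in that order. *Adra2a* lies at the top of the right panel with its GFP+ value left of its GFP- value.

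The make-up of TRP channel RNA differed between the libraries. *Trpa1* held 74.9% of the summed FPKM of the 27 genes in GFP+, against 2.87% in GFP-. With *Trpm2* at 6.22%, *Trpc7* at 5.63% and *Trpc4* at 1.85%, the 4 members held 88.6% in GFP+, against 3.56% in GFP-. In GFP- the leading gene was *Trpm4* at 46.9%, followed by *Mcoln1* at 25.1%. The summed FPKM of the other 23 family genes was 94.0 in GFP+ and 84.4 in GFP-, while the sum over all 27 was 824 FPKM in GFP+ cells and 87.5 FPKM in GFP- cells.

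**Figure D4:**
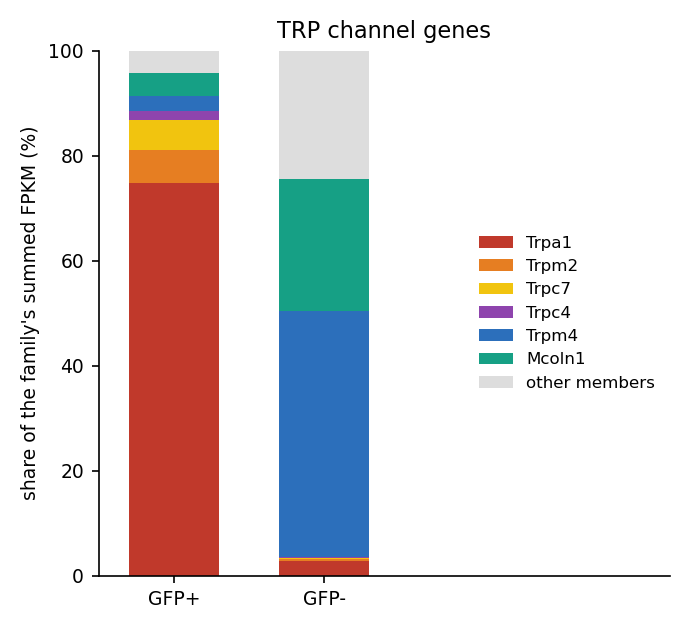
Share of the summed FPKM of 27 TRP channel genes held by single genes in the GFP+ and the GFP- library. *Trpa1* holds 74.9% in GFP+ and 2.87% in GFP-, where *Trpm4* holds 46.9%.

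*Adra2a* was set beside the other 7 adrenergic receptor genes of the plot of both families, and stood above each of them in both libraries. The other alpha-2 receptors were at 0.0257 FPKM in GFP+ cells and 0 in GFP- for *Adra2b* and at 0 in both for *Adra2c*. *Adra1a* was at 0.612 and 0.0146 FPKM, and *Adrb1* at 0.212 and 0.0141 FPKM. None of the 5 dopamine receptor genes reached 1 FPKM, their summed level being 0.0454 FPKM in GFP+ cells and 0.0441 FPKM in GFP- cells.

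Genes that make and clear catecholamines were looked at for the ligands of these receptors. Of 12 genes 8 reached 1 FPKM, of which 4 passed the 4-fold rule upward and 1 downward, with a median of 1.49. The shares over all symbols compared were 7.09% and 4.59%, with a median of -0.12. *Dbh* and *Pnmt*, the enzymes that make noradrenaline and adrenaline, were listed at 0 in both libraries. *Th*, the first enzyme of dopamine synthesis, stood at 1.75 FPKM in GFP+ cells and 1.15 FPKM in GFP- cells. The vesicular monoamine transporter *Slc18a2* was at 94.0 against 0.467 FPKM and *Slc18a1* at 462 against 10.7 FPKM, transporters that serotonin also uses. *Ddc*, the decarboxylase shared by dopamine and serotonin synthesis, was at 402 against 63.9 FPKM. *Slc22a3*, a low-affinity uptake carrier for monoamines, was at 17.2 against 1.94 FPKM. *Maoa*, which degrades noradrenaline and serotonin, was at 23.9 against 116 FPKM and did not pass the rule with the median ratio of well-expressed genes set to 0 or with one total. *Maob*, which degrades dopamine, had a difference of -0.13, a value that both other scalings put above 0.

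The Gi/o arm through which alpha-2 receptors signal was present in GFP+. Of 25 genes of this list 17 were compared and 8 passed the 4-fold rule, all of them upward, with a median of 1.87. The background over all symbols compared was 7.09% higher and 4.59% lower, with a median of -0.12. The ubiquitous subunits *Gnai2* and *Gnai3* were at 181 and 115 FPKM in GFP+ cells, against 149 and 84.7 FPKM in GFP- cells. *Gnao1*, the Go subunit of neurons and endocrine cells, was at 31.4 against 0.322 FPKM, and *Gnaz* at 30.6 against 0.522 FPKM. *Rgs2*, which shortens G protein signals, was at 193 against 1.70 FPKM and the adenylyl cyclase *Adcy8* at 49.5 against 0.573 FPKM. *Kcnj3* and *Kcnj5*, which form potassium channels opened by Gi/o proteins, were at 9.14 and 19.8 FPKM in GFP+ cells, against 0.145 and 0.123 FPKM in GFP- cells. Of the 17, 9 were below 1 FPKM in GFP- cells and entered through GFP+ alone. With a pseudocount of 5 the count of 8 fell to 5.

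Receptors also open TRPC channels through phospholipase C. Of 13 genes of phospholipase C and calcium stores that were compared, 2 were at least 4-fold higher, *Stim1* at 79.8 against 16.8 FPKM and *Stim2* at 40.8 against 5.89 FPKM, sensors of the calcium store. None was lower, and the median was 0.95. Of the 13, 4 were below 1 FPKM in GFP- cells and so could not be lower. *Stim1* did not pass the rule with a pseudocount of 5. Among all symbols compared 7.09% were higher and 4.59% lower, and the median was -0.12. *Plcb3*, the most abundant phospholipase C beta of these libraries, was at 122 FPKM in GFP+ cells and 229 FPKM in GFP- cells, and *Gna11*, which activates it, at 74.9 and 196 FPKM. *Itpr1*, a calcium release channel of the store, had a log2 difference of 1.82. It passed the rule under both other scalings and with a pseudocount of 0.1. *Orai1*, the pore that refills the store, had a difference of -0.17, which turned above 0 under both other scalings.

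Proteins known to bind TRPC channels showed no gene past the rule among 11 compared, against 11.7% of all symbols compared in either direction. Their median of -0.18 turned to 0.20 with the median ratio set to 0 and to 0.28 with one total. *Trpc4ap*, named for its association with TRPC4, was at 106 FPKM in GFP+ cells and 105 FPKM in GFP- cells, and the scaffold *Slc9a3r1* at 165 and 188 FPKM, a difference turning above 0 under both other scalings. The widest difference was -1.45, for the chaperone *Fkbp4*, at 199.9 and 547 FPKM. The calmodulin genes *Calm2* and *Calm3* had differences of -0.99 and 0.04, and the scaffold *Homer2* one of -0.77. Genes of ADP-ribose metabolism, which makes and breaks down the ligand of TRPM2, had no call among 9 compared, with a median of -1.21. This median was -0.73 with the median ratio set to 0 and -0.61 with one total. *Cd38*, which makes ADP-ribose from NAD, was at 25.1 against 80.7 FPKM, and *Nudt9*, which hydrolyses ADP-ribose, at 18.5 against 76.5 FPKM, with a difference of -1.99. *Nudt5* and *Adprhl2*, which also break down ADP-ribose or its conjugates, had differences of -1.36 and -1.24. *Parg*, which frees ADP-ribose from its polymer, and *Adprm* went the other way, at 28.6 and 28.0 FPKM in GFP+ cells, against 13.6 and 13.5 FPKM in GFP- cells, and *Nampt*, of NAD synthesis, had a difference of 0.33.

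**Figure D5:**
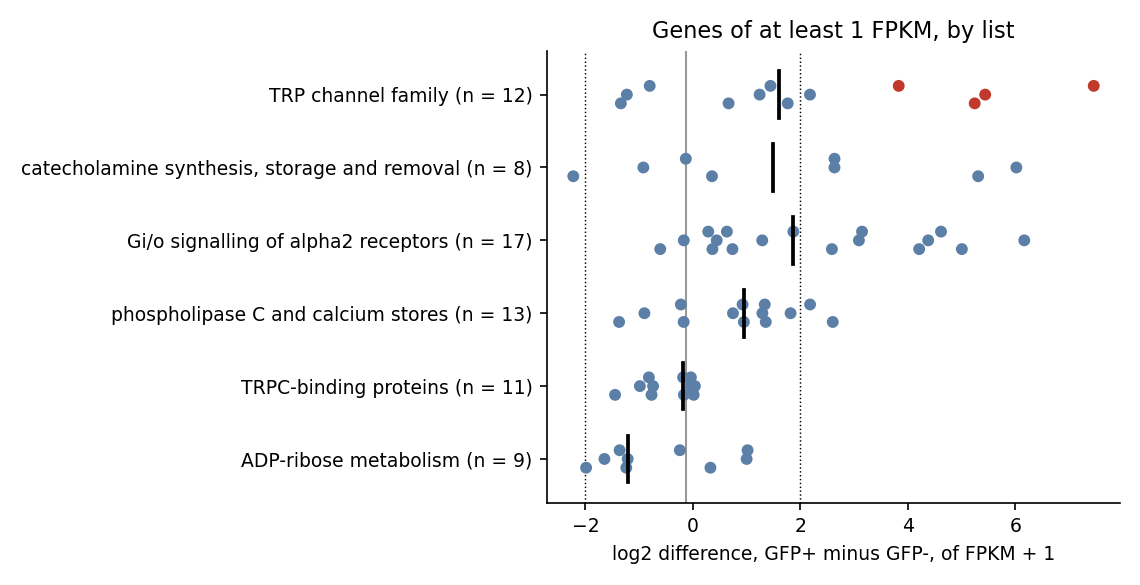
Log2 difference, GFP+ minus GFP-, of FPKM + 1 for each gene that reached 1 FPKM in either library, by list. Each dot is a gene (red for the genes described), black bars are list medians, the grey line is the median of all symbols at -0.12 and dotted lines mark 4-fold; the list medians run between 1.87 for Gi/o signalling and -1.21 for ADP-ribose metabolism.

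The genes with a level most like that of each member were found by distance between the pairs of log2(FPKM + 1) over the 2 libraries. For *Trpa1* these were *Ucn3* (urocortin 3, distance 0.36), at 509 against 3.13 FPKM, *Tpbg* (0.76) and *Amigo2* (0.86). *Trpc7* and *Trpm2* were among each other's nearest genes, with a distance of 0.15, beside *Pcyt1b* and *Dusp2* for each. For *Trpc4* they were *Tbx3os2*, *St8sia3* and *Rab36*, all within 0.06. For *Adra2a* the nearest was *Avil* (distance 0.00058), followed by *Ces1g* (0.079) and *Atic* (0.094). With 2 libraries, a like level does not show a like pattern across cells.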

How the data were processed

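Per the labels' protocols, cDNA libraries were made by the SMARTer low-input method after sorting GFP+ and GFP- cells. The deposited values are FPKM with lower and upper confidence bounds and a status, per the file headers. FastQC, TopHat2 (version 0.7 as listed), Cufflinks, Cuffdiff and the mm10 build are named in the submitters' processing notes. How multi-mapped reads, library size and the gene annotation were handled is not given in any source used here, and the depth per library is unknown. Each file has 23793 rows, of which 5 in GFP+ have the status HIDATA and were treated as not estimated, and 333 join several symbols and were kept apart. The summed FPKM was 407210 in GFP+ and 627401 in GFP-.

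FPKM was summed per symbol, and a symbol entered the comparison when either library had 1 FPKM or more; the scale was log2(FPKM + 1), GFP+ minus GFP-, with a difference of at least 2 (4-fold) as the size rule. With 1 library per group no test was possible. The members and lists were chosen with earlier results of these data known. Named are the 5 genes, the TRP and adrenergic genes by level, up to 4 genes per other list with the widest difference, genes of at least 10 FPKM that go against their list's median, and the 3 nearest genes of each member. *Kcnj3*, *Kcnj5*, *Gnai2*, *Gnai3*, *Th*, *Dbh*, *Pnmt*, *Slc9a3r1* and the marker genes were added for their roles after their values were seen. Some genes of these lists are not reported here. *Drd1* is listed as *Drd1a*. In the steps of low FPKM values, 59.0% of 83 genes in GFP+ and 75.2% of 109 in GFP- lay within 0.1 of a whole fragment below 4.5 fragments, with a unit chosen from the same values; the fragment figures are approximate. Scripts were tested on simulated data. Python 3.11.15, pandas 2.3.3, numpy 2.4.6 and scipy 1.17.1 were used.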

Additional observations from a re-analysis of the deposited data

How the results depend on the processing

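The direction of all 5 genes was the same under each of the 8 alternatives that gave a value. A change of pseudocount or filter cannot turn the sign, and each gene has a single row that joins no other symbol. The rescalings, by the median ratio and by one total, raised GFP+ relative to GFP- by 0.50 and 0.62 in log2. The log2 FPKM ratio was -2.06 for *Adra2a* and at least 6.73 for the channel genes, so neither rescaling could turn a sign. The unchanged direction was therefore fixed in advance by the settings run and is no check. The log2 differences ranged between 6.37 and 7.99 for *Trpa1*, 3.43 and 7.39 for *Trpm2*, 3.29 and 7.05 for *Trpc7*, 1.98 and 5.98 for *Trpc4*, and -1.97 and -0.65 for *Adra2a*, which has no value under a filter of 5 FPKM. *Trpc4* missed the 4-fold rule with a pseudocount of 5 (1.98). That setting left 3 TRP genes, 5 Gi/o genes, 1 gene of phospholipase C and calcium stores, and 353 of all symbols higher and 315 lower. With a pseudocount of 0.1, 5 genes of phospholipase C and calcium stores were higher, 1 TRP gene (*Trpm5*) and 1 gene of ADP-ribose metabolism (*Nudt9*) were lower, and 1524 symbols were higher. With the median log2 ratio of genes with 10 FPKM or more in each library raised from -0.50 to 0, 0 catecholamine genes were lower. In that setting 1317 symbols were higher and 184 lower, 87.7% of those called being higher, against 60.7% as deposited. With one total (a shift of 0.62 in log2, also upward for GFP+ relative to GFP-), 0 catecholamine genes were lower. There 1338 symbols were higher and 130 lower (91.1% higher). Counting rows that join symbols made 1 gene of ADP-ribose metabolism higher (*Parp1*, in a row with a microRNA). The cause of these changes beyond the construction of each setting was not tested. No paired analysis was possible because each fraction has 1 library. The fragment figures depend on the transcript taken, the shortest coding one having 436 bases against 7274 for *Trpm2* and 2239 against 3519 for *Trpc7*. With it *Adra2a* moved to 237 fragments in GFP+ and 976 in GFP-, and *Trpa1* to 121289 in GFP+, each outside its Poisson interval. Only the GFP- figure of *Trpc4* stayed inside its interval, at 27.0. Without replicates the spread between sorts is unknown. The depth per library is also unknown, so the limit it sets on low values in either library is known only approximately.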

Other observations

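Rows that join a gene with a neighbour were left out of the counts. *Itpr3*, a calcium release channel of the store, was listed with a microRNA gene at 122 FPKM in GFP+ cells and 9.23 FPKM in GFP- cells, a log2 difference of 3.59. *Parp1*, which builds the ADP-ribose polymer, was listed in the same way at 345 against 51.4 FPKM, a difference of 2.72. *Trpc2* was listed together with *Xndc1* and *Xntrpc* at 2.29 FPKM in GFP+ cells and 5.68 FPKM in GFP- cells, a difference of -1.02. The level of the single genes in these rows was not analysed here.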
